A study of Mus musculus with 6 samples.

Results

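Cytosolic ribosomal protein genes encode the proteins of the large and small ribosomal subunits, which assemble with ribosomal RNA in the nucleolus and carry out protein synthesis in the cytosol. Their mRNAs are abundant in most tissues. Most begin with a terminal oligopyrimidine (TOP) tract, a C followed by a run of C and T at the transcription start, through which the kinase complex mTORC1 and the RNA-binding protein Larp1 set how much of the mRNA is translated. In skeletal muscle the amount of ribosomes is one determinant of fibre size, and adult fibres also use a muscle paralog of one large subunit protein, Rpl3l.

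The genes were compared in gastrocnemius, a calf muscle, of 3 control mice with floxed TAK1 alleles and 3 littermates with a TAK1 knockout specific to skeletal muscle, taken 3 weeks after the deletion. TAK1, encoded by Map3k7, is a signalling kinase downstream of receptors for cytokines and TGF-beta. RNA of each mouse was hybridised to 1 Affymetrix expression array, and levels are on the log2 scale, so that a difference of 1 is a doubling. The labels name neither the driver of the deletion nor the sex or age of the mice, and cells other than fibres keep the gene in a muscle-specific knockout.

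Members were the genes of the value table whose symbol starts with Rpl or Rps followed by a number, or is Rplp with a number, read from probe sets that carry exactly 1 gene symbol. Rps6k kinases and pseudogenes were left out, and each gene was represented by its brightest probe set, by the mean of the 6 arrays. This gave 68 genes of 22180. The rule reads no fold change, but the gene group was taken up with a shift of translation genes in these data already known, so its direction is not independent evidence. Of the 68, 32 encode proteins of the large subunit, 3 the stalk of the large subunit and 22 proteins of the small subunit. Another 9 are paralogs, Rpl3l, Rpl6l, Rpl7l1, Rpl10l, Rpl22l1, Rpl32l, Rpl39l, Rps4l and Rps27l. The symbol also admitted 2 genes that encode no ribosomal protein, Rps19bp1, whose product binds Rps19, and Rps23rg1, a retrogene copied from Rps23. Another 14 symbols of the same pattern, Rpl10, Rpl13a and Rps2 among them, were read only by probe sets shared with other genes and are not members.

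The arrays were alike in overall intensity, with medians between 5.78 and 5.84. All 15 measured markers of muscle fibres had mean levels between 12.72 and 14.14, as the tissue label says. Map3k7 was measured at 8.47, 8.32 and 8.42 in control and 8.20, 8.28 and 8.17 in knockout muscle. The highest knockout value was below the lowest control value, but the log2 fold change of −0.19 was not called (limma, adjusted p = 0.686).

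As a sequence feature that membership did not use, the RefSeq start sites of the members (assembly GRCm38.p6) were searched for a TOP start, a C at the annotated start base followed by at least 4 bases that are C or T on the transcribed strand. Of 68 members, 53 had a window in the table. A TOP start was found in 11 of these 53 (20.8%) and in 813 of all 27025 genes of the table (3.01%). A gene with several listed starts counted if any of them matched. Annotated starts can lie a few bases from the one a cell uses, so genes without a match here may still start with C. The windows below run 5′ to 3′ over 15 bases before the annotated start and 15 from it on, with the TOP start in capitals. Those of Rps6, Rps10, Rpl38, Rpl28, Rps27 and Rplp2 hold one, and those of Rplp0 and Rps3a1, the members with the largest differences between the groups, do not.
Rps6, chr4:86857353-86857382, minus strand: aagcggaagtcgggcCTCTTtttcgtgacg
Rps10, chr17:27635230-27635259, minus strand: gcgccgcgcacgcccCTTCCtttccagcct
Rpl38, chr11:114668565-114668594, plus strand: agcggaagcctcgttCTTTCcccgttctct
Rpl28, chr7:4792950-4792979, plus strand: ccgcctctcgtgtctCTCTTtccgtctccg
Rps27, chr3:90213634-90213663, minus strand: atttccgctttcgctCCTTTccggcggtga
Rplp2, chr7:141447636-141447665, plus strand: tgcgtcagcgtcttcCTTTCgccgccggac
Rplp0, chr5:115559452-115559481, plus strand: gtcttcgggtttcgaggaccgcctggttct
Rps3a1, chr3:86142654-86142683, minus strand: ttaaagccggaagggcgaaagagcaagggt

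Ribosomal protein genes lay slightly higher in knockout than in control muscle as a group, while no single gene passed the test. Of the 68 members, 53 were higher and 15 lower, and 49.9% of all genes were higher. The median log2 fold change was 0.09, which is a level 6.66% higher, against −0.0003 over all genes. The quartiles of the members were 0.02 and 0.14, with the lowest at −0.29 (Rps15) and the highest at 0.59 (Rps3a1).

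None of the 68 passed an adjusted p of 0.05 over all genes (limma with Benjamini-Hochberg adjustment), where 21 of 22180 genes (0.0947%) passed, 9 of them (0.0406%) higher in knockout muscle. The smallest adjusted p among members was 0.314, for Rplp0. An unadjusted p under 0.05 was reached by 5 members, all of them higher, which is 7.35% of the members against 8.04% of all genes. That share is near the background.

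The groups did not overlap in 14 members, with every knockout value above every control value. That is 20.6% of the members, and the same held for 6.74% of all genes. No member had all knockout values below all control values, which 6.65% of all genes had. The 14 were Rpl6, Rpl7, Rpl11, Rpl19, Rpl21, Rpl38, Rplp0, Rps3, Rps3a1, Rps4x, Rps10, Rps12, Rps24 and Rps29, in other words 6 large subunit, 1 stalk and 7 small subunit proteins and 0 paralogs. Members vary together across arrays, so these counts are a description and not 68 independent observations.

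**Figure D1:**
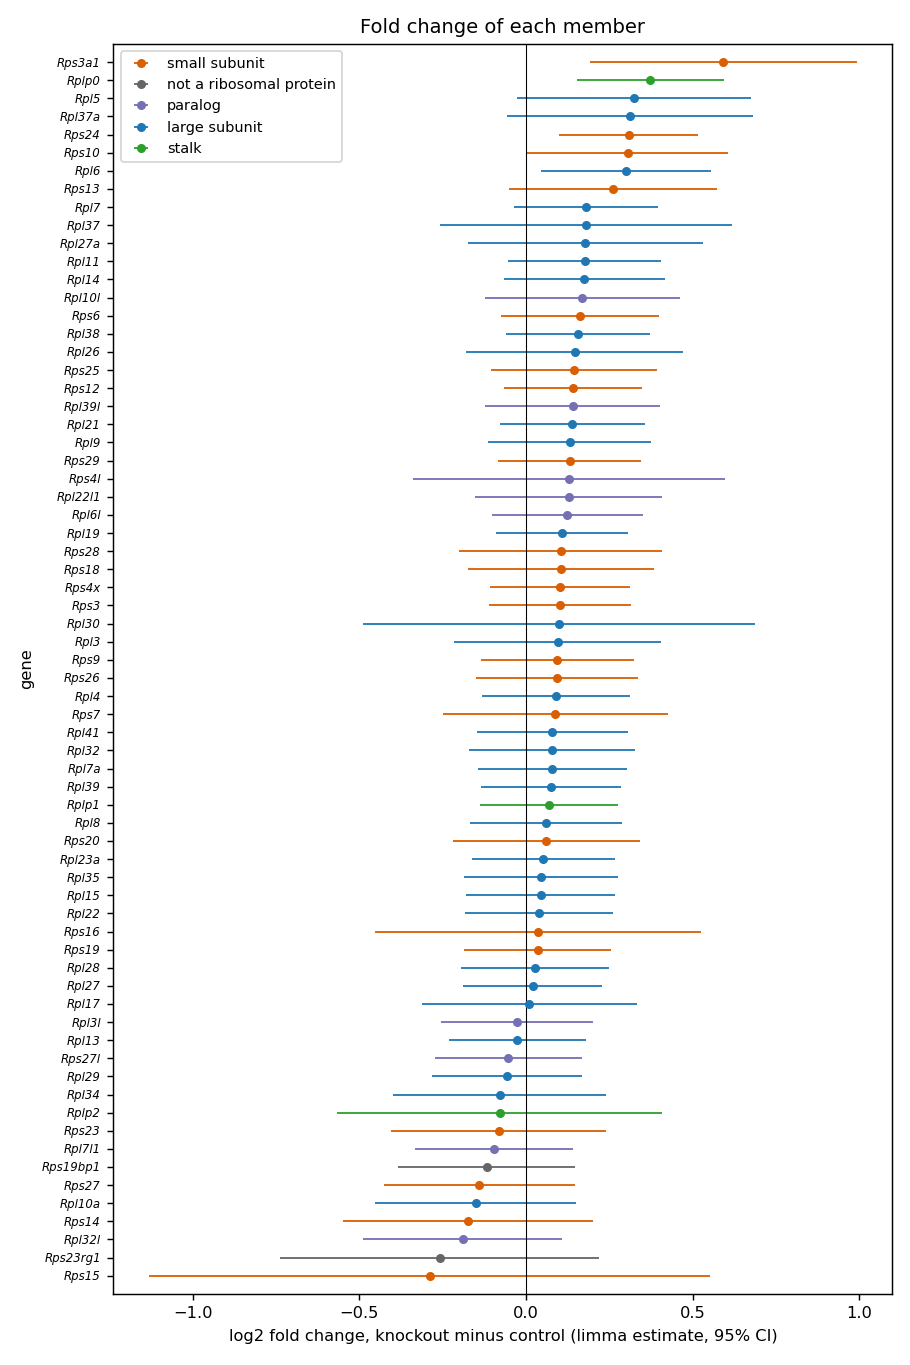
Log2 fold change, knockout minus control, of the 68 members, with limma's 95% confidence interval over 3 against 3 arrays and colours for the class of protein. Points range from −0.29 (Rps15) to 0.59 (Rps3a1), with 53 right of 0. The intervals of Rplp0, Rps24, Rps3a1, Rps10 and Rpl6 lie above 0 and the others cross it.

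The spread of member levels between mice of a group was slightly larger than their shift between groups. The median standard deviation within groups was 0.11 for the members and 0.15 for all genes, and the members' median log2 fold change was 0.09. That standard deviation was 0.16 for small subunit genes and 0.25 for members at or below background. Per array, the median distance of the members from their own mean over the 6 arrays was 0.0004 in control 1, −0.09 in control 2 and −0.05 in control 3. It was 0.002 in knockout 1, 0.03 in knockout 2 and 0.07 in knockout 3. Every knockout median was above every control median, but control 1 and knockout 1 lay almost together, and the distance between the groups came mostly from control 2 and knockout 3. Over all genes the same medians stayed between −0.01 and 0.01.

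Control 2 was the lowest of the 6 arrays for 24 members (35.3%) and for 16.7% of all genes. Bright genes shared this in part: control 2 was the lowest array for 611 of the 2182 genes above a level of 9, and for 16 of the 30 members above it (53.3%). Knockout 3 was the highest for 21 members (30.9%) and for 15.8% of all genes, and it was the lowest for 1 member. Without control 2 the median log2 fold change of the members was 0.08, with 51 of them higher, and without knockout 3 it was 0.07, with 47 higher. The direction of the median thus held without either array. The labels give no batch.

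**Figure D2:**
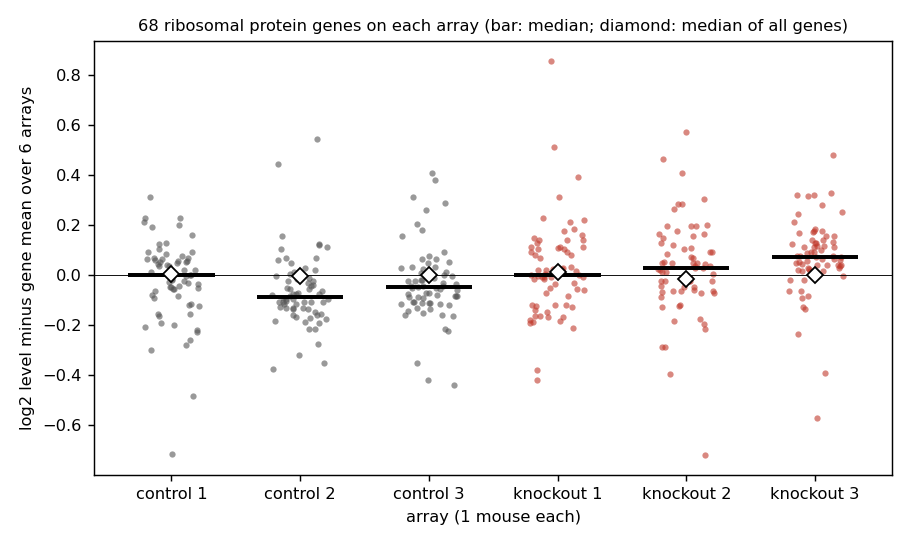
Log2 level of each of the 68 members minus that gene's mean over all 6 arrays, for 3 control and 3 knockout arrays. Bars are the medians of the members, from −0.09 in control 2 to 0.07 in knockout 3, and diamonds the medians of all 22180 genes, which stay between −0.01 and 0.01.

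The large subunit genes had a median log2 fold change of 0.08, with 28 of 32 higher. Rpl6 was measured at 7.02, 6.99 and 7.07 in control and 7.33, 7.15 and 7.50 in knockout muscle. Its groups did not overlap, and the log2 fold change was 0.30 (SE 0.11, limma, adjusted p = 0.538). Rpl5 and Rpl11 join the large subunit together with its smallest ribosomal RNA, and outside the ribosome they inhibit Mdm2, which stabilises p53. Rpl5 was measured at 5.94, 6.12 and 6.19 in control and 6.08, 6.65 and 6.49 in knockout muscle (log2 fold change 0.32, 95% confidence interval −0.03 to 0.68), with overlapping groups. Rpl11 was measured at 6.08, 6.21 and 6.27 in control and 6.45, 6.32 and 6.31 in knockout muscle (0.18, −0.05 to 0.40), and its groups did not overlap.

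Rpl19 had the smallest spread among controls of all members. Its levels were 11.34 on all 3 control arrays and 11.46, 11.44 and 11.44 on the knockout arrays, so the groups were apart with standard deviations of 0.003 and 0.01. The log2 fold change was 0.11 (SE 0.09, limma, adjusted p = 0.832). The moderated test shares the spread of all genes, which makes that error far wider than the spread of these 6 values. A second, dimmer probe set of Rpl19 had a log2 fold change of −0.18, so the small difference depended on the probe set. Rpl38, which is known for its part in translation of Hox mRNAs in the embryo, was measured at 11.11, 11.02 and 11.04 in control and 11.16, 11.17 and 11.31 in knockout muscle (0.16, −0.06 to 0.37). The highest levels among members were those of Rpl21, Rpl4 and Rpl28, with means of 12.96, 12.73 and 12.48 and log2 fold changes of 0.14, 0.09 and 0.03. Rpl37a, Rpl37, Rpl7 and Rpl26 had log2 fold changes of 0.31, 0.18, 0.18 and 0.15, and Rpl37 lay below background, a level defined with the spread of levels further on. The lowest log2 fold change in the large subunit was that of Rpl10a, with 8.23 ± 0.21 in control against 8.08 ± 0.13 in knockout muscle (mean ± SD of 3 arrays, log2 fold change −0.15).

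The stalk binds the factors that drive elongation, and its 3 proteins are Rplp0, the base, with Rplp1 and Rplp2 bound to it. Rplp0 had the smallest p of all members. It was measured at 8.84, 8.88 and 8.89 in control and 9.14, 9.25 and 9.34 in knockout muscle. The groups did not overlap and the mean level was 29.5% higher (log2 fold change 0.37, SE 0.10, limma, adjusted p = 0.314). The adjusted p ran from 0.134 to 0.648 over the alternatives. Its second probe set had a log2 fold change of 0.17. Rplp1 lay at 11.19 ± 0.05 in control against 11.26 ± 0.04 in knockout muscle (0.07), and Rplp2 at 5.48 ± 0.48 against 5.40 ± 0.14 (mean ± SD of 3 arrays, −0.08). Rplp2 was below the level of 5.85 taken as background, and the probe set it shares with Snora52, a snoRNA gene, was brighter and of opposite sign. That probe set was measured at 7.54, 8.59 and 8.67 in control and 8.51, 8.49 and 8.71 in knockout muscle (log2 fold change 0.31), with control 1 far below the other arrays. The direction for Rplp2 therefore depended on the probe set.

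The small subunit genes had a median log2 fold change of 0.10, with 18 of 22 higher. Rps24 was measured at 9.96, 10.05 and 9.99 in control and 10.34, 10.25 and 10.34 in knockout muscle. Its groups did not overlap, and the log2 fold change was 0.31 (SE 0.09, limma, adjusted p = 0.422). Its other probe sets had log2 fold changes of 0.21 and 0.48, so every probe set of the gene was higher in the mean. Rps24, Rps10 and Rps19 are among the genes mutated in Diamond-Blackfan anaemia, a failure of red cell production. Rps10 was measured at 7.21, 7.09 and 6.75 in control and 7.40, 7.32 and 7.24 in knockout muscle (0.30, 95% confidence interval 0.004 to 0.60; limma, adjusted p = 0.617). Rps19 was measured at 8.70, 8.70 and 8.66 in control and 8.62, 8.71 and 8.83 in knockout muscle (0.03, −0.19 to 0.25), with overlapping groups.

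Rps3a1 had the largest log2 fold change of all members. It was measured at 9.62, 10.17 and 10.32 in control and 10.72, 10.51 and 10.65 in knockout muscle (log2 fold change 0.59, SE 0.18, limma, adjusted p = 0.422). Control 1 was far below the other arrays, and without it the log2 fold change was 0.38. The gene's other probe set, at a mean of 5.10 and so below background, had a log2 fold change of −0.56, and with the mean over both probe sets the value was 0.01.

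Rps6, the phosphorylation target of the S6 kinases below mTORC1, was measured at 11.92, 11.65 and 11.79 in control and 12.01, 11.89 and 11.94 in knockout muscle. Control 1 lay within the knockout range, and the log2 fold change was 0.16 (95% confidence interval −0.08 to 0.40). Rps3, a protein of the mRNA entry site, had a log2 fold change of 0.10, Rps4x 0.10, Rps25, used by some viral mRNAs to recruit ribosomes, 0.14 and Rps13 0.26. Lower in the mean were Rps15 (−0.29), Rps14 (−0.17), Rps27 (−0.14) and Rps23 (−0.08). The value of Rps27 depended on the probe set. Its own had a mean of 6.67, and a brighter one shared with Rps27rt, at 10.92, had a log2 fold change of −0.0093. Rps15 was measured at 5.61, 5.26 and 5.79 in control and 6.27, 4.69 and 4.84 in knockout muscle, so knockout 1 was the highest array and the other knockouts the lowest. Without knockout 1 its log2 fold change was −0.79 (limma, adjusted p = 0.314). Rps15 and Rps14 had means of 5.41 and 5.56, below background.

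**Figure D3:**
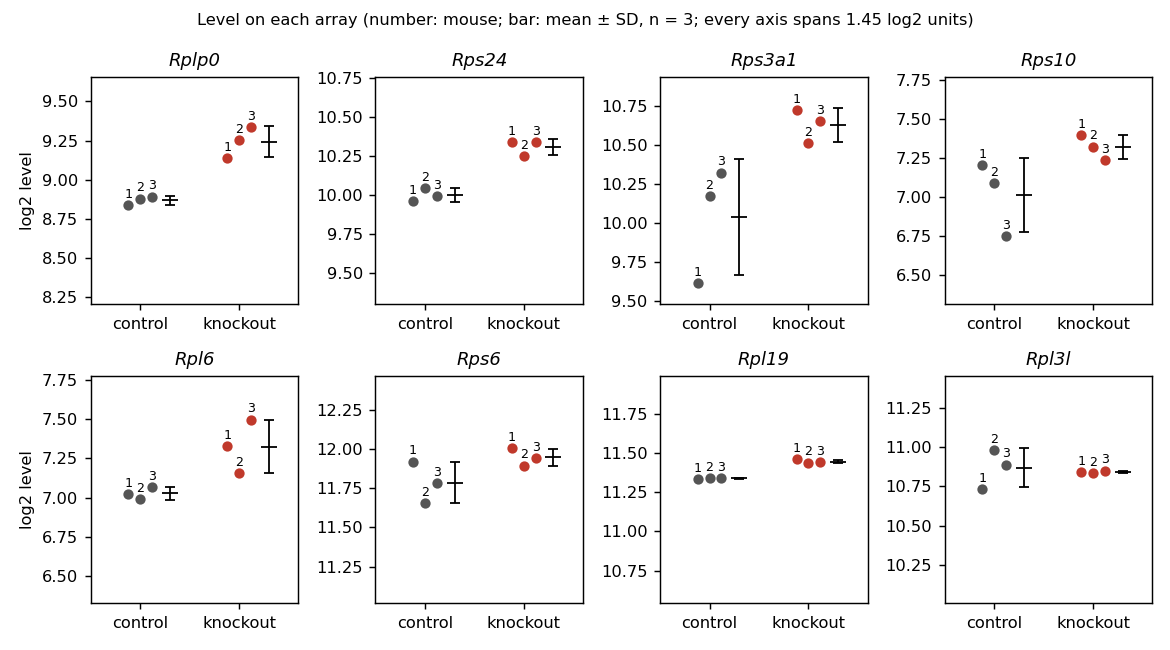
Log2 level of 8 members on each array, control in grey and knockout in red, with the mouse number above each point and the mean ± SD (n = 3) beside each group. Rplp0, Rps24 and Rpl19 show groups apart with little spread, Rps3a1 has 1 low control at 9.62, and the knockout values of Rpl3l lie inside the control range.

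The paralogs had a median log2 fold change of 0.12, with 5 of 9 higher, and their groups overlapped in all 9. Over all genes, 6.74% had every knockout value above every control value and 6.65% every one below. With 9 genes, the lack of such cases shows nothing particular to paralogs. Rpl3l, which replaces Rpl3 in adult skeletal and heart muscle ribosomes, was measured at 10.74, 10.98 and 10.89 in control and 10.84, 10.83 and 10.85 in knockout muscle. The knockout values lay inside the control range, and the log2 fold change of −0.03 had a 95% confidence interval of −0.25 to 0.20. Rpl3 was measured at 7.28, 7.35 and 7.31 in control and 7.46, 7.65 and 7.13 in knockout muscle (log2 fold change 0.10, −0.22 to 0.41). A second probe set of Rpl3, at almost the same mean level, had a log2 fold change of −0.03. The difference Rpl3l minus Rpl3 was 3.55 ± 0.09 in control against 3.43 ± 0.27 in knockout muscle (mean ± SD of 3 arrays), a change of −0.12 (two-sided exact permutation test, p = 0.6, adjusted p = 0.8 over 4 pairs).

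The other pairs changed by 0.09 for Rpl22l1 minus Rpl22, 0.07 for Rpl39l minus Rpl39 and 0.09 for Rps27l minus Rps27 (exact permutation p = 0.6, 0.9 and 0.6). Rps27 was read there from its own probe set, dimmer than the one shared with Rps27rt. The smallest p that 3 against 3 arrays can give is 0.1, so no pair could have passed. Of single paralogs, Rps27l, a p53 target, had a log2 fold change of −0.05 (95% confidence interval −0.27 to 0.17) and Rpl7l1 −0.10 (−0.33 to 0.14). Rpl22l1 (0.13), Rps4l (0.13), Rpl10l (0.17), a paralog of the testis, and Rpl32l (−0.19) had means below background. The means of Rpl10l and Rpl32l, 2.70 and 3.10, were the lowest and second lowest of the members. Rpl39l, another paralog known from the testis, lay at 5.93, close to background, with a log2 fold change of 0.14, and its partner Rpl39 and Rpl22 had 0.07 and 0.04. The 2 genes that encode no ribosomal protein were both lower, Rps19bp1 by −0.12 and Rps23rg1 by −0.26.

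Levels of the members spread widely, from 2.70 to 12.96 with a median of 8.04. In all, 57 of 68 lay above background, which was taken as the 95th percentile of the mean levels of olfactory and vomeronasal receptor genes. Of these 57, 46 were higher in knockout muscle (median log2 fold change 0.09), as were 47.1% of all genes above background. Of the 11 at or below it, 7 were higher, with a median of 0.06. Among the 30 members above a level of 9, a limit chosen after the values were seen, 27 were higher and 10 had groups that did not overlap. Of all genes above that level 50.4% were higher, and knockout values lay above all control values in 11.0%.

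Several probe sets for the same gene show how far the choice of the brightest matters. Of 23 members with more than 1 distinct probe set, 12 had every probe set higher in knockout muscle, 2 had every probe set lower and 9 had probe sets of opposite sign. In Rpl7, Rpl35, Rps18, Rps26, Rps28 and Rps3a1 the probe set of opposite sign lay below background. In Rpl3, Rpl19 and Rpl41 it lay above background. Of the 35 distinct probe sets that had not been chosen, 24 (68.6%) were higher and the median was 0.09. The probe sets of Rps12 and of Rpl21 lay close together, with log2 fold changes of 0.14, 0.10 and 0.12 and of 0.14, 0.14 and 0.11. Those of Rps20, below background, went from 0.06 to 0.52 and those of Rps18 from 0.10 to −0.14. Ribosomal protein genes have many processed pseudogenes of near-identical sequence, and an array cannot separate their transcripts from those of the gene.

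**Figure D4:**
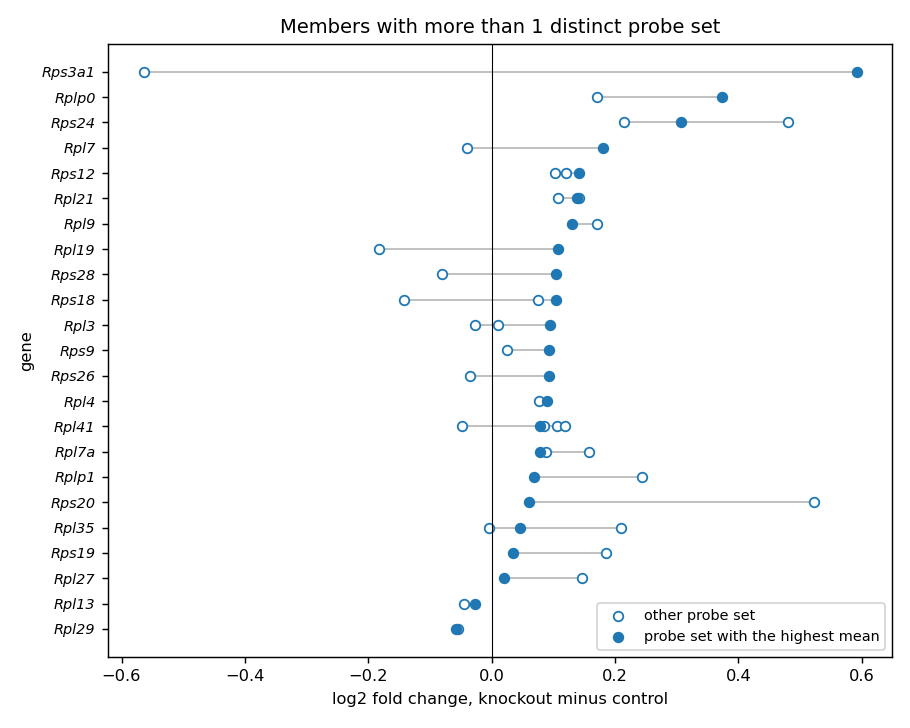
Log2 fold change, knockout minus control, of each distinct probe set of the 23 members that have more than 1, with the probe set of the highest mean filled. In 12 genes every probe set lies right of 0 and in 9 they lie on both sides, with Rps3a1 the widest, from −0.56 to 0.59.

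A TOP start in the RefSeq window did not go with a larger value. The 11 members that hold one had a median log2 fold change of 0.05, with 8 higher, and the 42 without it a median of 0.10, with 32 higher. Annotated starts can lie a few bases off, so the 42 may include many TOP mRNAs. The split therefore cannot show whether TOP mRNAs differ from others.

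Other genes of translation were taken from lists of this pathway. Ribosomal proteins under other names were higher, the laminin receptor Rpsa at 10.02, 10.10 and 10.14 in control and 10.37, 10.29 and 10.38 in knockout muscle (log2 fold change 0.26, limma, adjusted p = 0.513) and Fau by 0.08. Of 20 other mRNAs known or proposed to carry a TOP tract, 14 were higher, with a median of 0.11 and 0 called. The elongation factor subunits Eef1g (0.28) and Eef1a1 (0.37) had the smallest p, and both had groups that did not overlap. Eef1a1 was measured at 11.34, 11.40 and 11.38 in control and 11.95, 11.81 and 11.46 in knockout muscle (limma, adjusted p = 0.532). Of 8 snoRNA host genes, whose introns hold guide RNAs for the modification of ribosomal RNA, 5 were higher (median 0.08, 0 called), with Snhg12 at 0.36 and Snhg15 at 0.28.

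Of 53 ribosome assembly factors, 38 were higher, with a median of 0.08 and 0 called. Rrs1, which helps to load Rpl5 and Rpl11, had a log2 fold change of 0.35, and Riok2, a kinase of small subunit maturation, 0.33 (limma, adjusted p = 0.425 and 0.443). RNA polymerase I, which makes ribosomal RNA, and its regulators had a median of 0.02 over 18 genes, with 10 higher and 0 called. The transcription factors Myc and Mycn differed in sign, at 0.26 and −0.26, and Mycn lay below background.

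Initiation factors had a median of −0.02, with 10 of 22 higher. Eif3a was at 0.28 and the cap-binding protein Eif4e at −0.22. Elongation, termination and recycling factors had a median of −0.06, with 2 of 9 higher, and Eef2k and Eif5a2 were both at −0.12. None of these genes was called. Genes of mTORC1 and TOP mRNA control had a median of −0.10, with 16 of 23 lower and 0 called. In 7 of the 23 (30.4%) every knockout value lay below every control value, against 6.65% of all genes and 11.6% of genes above a level of 9. In 1 every knockout value lay above. The list mixes inhibitors of mTORC1 with other genes of the pathway, so its median gives no direction for mTORC1 activity. Akt1s1, an inhibitory subunit of mTORC1, was measured at 8.28, 8.15 and 8.19 in control and 7.73, 7.79 and 7.89 in knockout muscle (log2 fold change −0.40, limma, adjusted p = 0.268). Deptor, another inhibitor of mTOR, was measured at 10.06, 10.25 and 10.45 in control and 11.09, 10.68 and 10.75 in knockout muscle (0.58, limma, adjusted p = 0.287). Both had groups that did not overlap, in opposite directions. The 71 genes of mitochondrial ribosomal proteins had a median of 0.04, with 42 higher and 0 called. In them control 1 was the lowest array for 33 genes and control 2 for 9. Control 2 was the lowest array for 26 of the 53 assembly factors, 12 of the 22 initiation factors and 8 of the 20 other TOP mRNAs. Knockout 3 was the highest for 27, 7 and 7 of them, but control 1 for 6, 9 and 8. In elongation, termination and recycling factors control 2 was the lowest for 2 of 9 and knockout 3 the highest for 1. In the mTORC1 list these counts were 2 and 3 of 23, and control 1 was the highest for 11. Over all genes, control 2 was the lowest for 16.7% and knockout 3 the highest for 15.8%. The arrays at the ends of the ribosomal protein range were thus at the ends for the assembly factors, but not for every list. Differences between these sets were not tested.

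**Figure D5:**
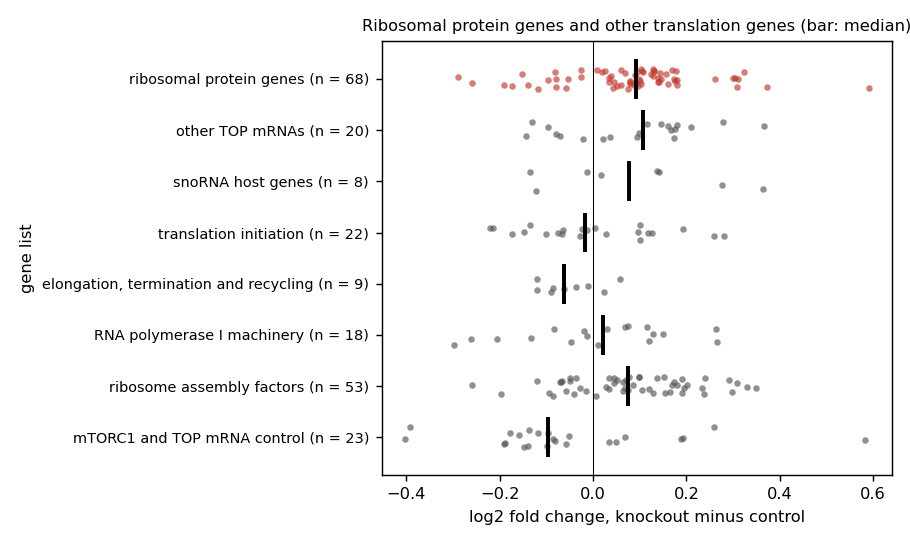
Log2 fold change, knockout minus control, of the 68 ribosomal protein genes (red) and of 7 lists of other translation genes (grey), 1 point a gene, with a bar at each median. Medians run from 0.11 for other TOP mRNAs to −0.10 for mTORC1 and TOP mRNA control, and the points of every list spread to both sides of 0.

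Cells other than fibres also contribute ribosomal protein mRNA to whole muscle, and in such samples fewer cells of a type and less RNA per cell cannot be told apart. Tendon markers were lower in the mean of the knockout group, but not on every array. All 8 were lower in knockout muscle, with a median log2 fold change of −0.63, and their summed log2 level was 59.6 to 63.5 in control and 53.1 to 59.7 in knockout muscle. Their per-array median was highest in control 2 (0.53) and lowest in knockout 3 (−1.02), the arrays at the opposite ends for ribosomal protein genes. Fibro-adipogenic markers were lower in 5 of 7 (summed level 66.7 to 69.8 in control and 63.3 to 71.4 in knockout muscle), with a per-array median of −0.75 in knockout 3. The part of these cells in the ribosomal protein values was not tested. Macrophage markers were higher in 5 of 11, with a median of −0.03 and summed levels of 76.0 to 79.8 in control and 75.8 to 79.7 in knockout muscle. None of the 8 lymphocyte markers lay above background (median log2 fold change −0.06). Muscle fibre markers were lower in 12 of 15 (median −0.04, summed level 203.0 to 204.1 in control and 202.5 to 202.9 in knockout muscle). In 5 of the 15 (33.3%) every knockout value lay below every control value, against 6.65% of all genes and 11.6% of genes above a level of 9. Among the 5 markers were the fast myosin light chain Mylpf (log2 fold change −0.46, limma, adjusted p = 0.221) and the myosin heavy chain Myh1 (−0.49, limma, adjusted p = 0.418). The part of such changes in the ribosomal protein values was not tested. Medians were −0.03 for the 8 endothelial, −0.05 for the 7 satellite cell, −0.11 for the 5 smooth muscle and −0.005 for the 3 Schwann cell markers. The 5 adipocyte markers were all lower in the mean (median −0.23), as was the red blood cell marker measured (−0.11). Summed adipocyte levels overlapped, at 33.5 to 36.4 in control and 32.1 to 36.3 in knockout muscle. The per-array median of the adipocyte markers was lowest in knockout 2 (−0.70) and highest in knockout 3 (0.42). No marker of any list was called. RMA, which the submitters name, makes arrays alike in distribution, so a change in the total amount of RNA or ribosomes per fibre would not appear in them.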

How the data were processed

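Total RNA of 6 muscles was extracted with Trizol and labelled as biotinylated cRNA, per the labels' protocols. The authors deposited log2 probe set values. The tools named in the submitters' processing notes are oligo, RMA and limma; their versions and order, and a genome build, are not given in the sources at hand. RMA summarises probes after making arrays alike and compresses differences of dim transcripts. No scanner files or detection calls were used here, and the number of arrays limits the precision.

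Gene symbols came from the platform annotation held by GEO. Of 41345 probe sets, 23521 had 1 symbol, 1814 several and 16010 none. All 68 members matched RefSeq by Entrez identifier. Knockout was set against control in R 4.3.3 by limma 3.58.1 (lmFit, eBayes, two-sided, Benjamini-Hochberg over 22180 genes, adjusted p of 0.05), with no filter on dim genes. The labels give 1 mouse per array and call the groups littermates but tie no mouse to a litter, and p-values measure the spread between these mice. On simulated data with 22180 genes, 200 of them changed, and 3 against 3 arrays, the test found 53.4% of 1.5-fold and 96.4% of 2-fold changes. Among the genes it called, 6.805% were false. The simulated noise was independent between genes and used limma's moderated standard deviations, so the rates in the real arrays may differ. Plots used matplotlib 3.10.9 in Python 3.11.15.

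Members and lists were chosen with earlier results of these data known, a shift of translation genes among them. Named members were those called, the 10 largest differences in each direction, the 3 highest and 3 lowest levels and a fixed set of genes; in lists, up to 2 genes with the smallest p. Members named for a group overlap or for several probe sets (Rpl19, Rps12, Rps18, Rps20 and Rps29) were chosen after their values were seen. Alternatives were other normalizations, probe set rules, filters, variance models, array weights, a replicate block and leaving out each array.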

Additional observations from a re-analysis of the deposited data

How the results depend on the processing

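No member was called under any of the 18 alternatives run, and all 41 named members stayed uncalled. The median log2 fold change of the members stayed between 0.07 and 0.10, and the share of members higher in knockout muscle between 69.1% (without knockout 3) and 84.2% (subunit proteins only, chosen after seeing the data). Genes called over all genes numbered 21, against 6 with every probe set tested, 53 with genes above the median level only, 36 with an intensity trend and robust prior, 45 among genes brighter than the receptor-gene background (chosen after seeing the data) and 2 to 11 without 1 array. The 14 members whose groups did not overlap became 12 to 13 under quantile normalization, median centring and the mean over probe sets. They became 16 to 23 without 1 array, where a smaller group overlaps less easily (23 without control 1 and without knockout 1). No share over all genes is given for these settings, so these counts show nothing particular to the members.

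Of the named members, 33 of 41 kept their direction in every alternative. Part of them were named for large differences on these same arrays, so this count does not stand for the other members. Some unnamed members also changed sign without 1 array, such as Rps16 (−0.21 to 0.24) and Rpl30 (−0.16 to 0.32). Among named members, log2 fold changes without 1 array ran from −0.0049 to 0.0755 for Rpl22, −0.0126 to 0.0714 for Rpl28, −0.0229 to 0.24 for Rpl3, −0.0928 to 0.0301 for Rpl3l, −0.34 to 0.12 for Rplp2, −0.0189 to 0.0842 for Rps19, −0.20 to 0.0282 for Rps23 and −0.0791 to 0.35 for Rps4l. The paralog differences ran from −0.27 to 0.0011 for Rpl3l minus Rpl3, −0.0534 to 0.17 for Rpl22l1 minus Rpl22 and −0.0121 to 0.18 for Rpl39l minus Rpl39, and the cause of these sign changes was not tested.

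Mice carry the same numbers in both groups, but the replicate block has no basis in the labels: deviations of same-numbered arrays correlated at 0.08, 0.21 and −0.07 across genes. With the replicate block, 17 genes and 0 members were called, and the median of the members was 0.09.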

Other observations

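Probe sets shared between a ribosomal protein gene and another gene, and those of named pseudogenes, were left out of the member values and counts above. The exceptions were the one that Rplp2 shares with Snora52 and the one that Rps27 shares with Rps27rt, each given beside its member. The alternative with every probe set tested also fitted all of them. Of 57 shared probe sets, which also read 14 symbols outside the members, 37 (64.9%) were higher in knockout muscle, with a median log2 fold change of 0.08. Groups did not overlap in 9 of the 57 with knockout higher and in 2 with knockout lower. Over all genes, each on 1 probe set, these shares were 6.74% and 6.65%, and among genes above background 7.6% and 8.3%. Of the 57, 50 lay above background. None of them passed an adjusted p of 0.05 over all probe sets (limma), where 6 of 41345 passed. The largest value was that of a probe set shared by Rps13, Rps13-ps4 and Gm15483, with controls between 4.45 and 4.69 and every knockout value above them, the lowest at 5.07 (log2 fold change 0.71, limma, adjusted p = 0.533), all below background. A second probe set shared by the same symbols, at a mean of 4.82, had a log2 fold change of 0.0068. The brightest of those that name Rpl30, Rpl27a and Rps16 had log2 fold changes of 0.14, 0.15 and 0.16, where these members' own probe sets had 0.10, 0.18 and 0.04. Others differed more. Bright shared probe sets of Rpl26, Rpl34 and Rpl37a had −0.03, 0.06 and 0.13, and these members' own probe sets 0.15, −0.08 and 0.31. The sign thus differed for Rpl26 and Rpl34. All of these genes were chosen after their values were seen. Of 15 pseudogene probe sets, 8 were higher, with a median of 0.02.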
